A study of Homo sapiens with 6 samples.

Results

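The regulators of G protein signalling (RGS proteins) were followed at the RNA level in MOLM13 cells, and 9 of their genes are described here, namely RGS1, RGS2, RGS3, RGS10, RGS12, RGS14, RGS16, RGS18 and RGS19. They were taken by symbol from the 56305 genes of the deposited count files, and all 9 were among the 20399 genes that had enough counts to be tested. The set was chosen by looking at the comparison described here, in which RGS1 was among the strongest falls, so the members' own changes are given as a description with no p-value. MOLM13 is an established acute myeloid leukemia line that carries an internal tandem duplication of FLT3 and a rearrangement of the MLL gene. Every library came from this single line. Cells were kept for 24 h with DMSO, the vehicle (3 libraries), or with 1 μM ZW27941 (3 libraries). ZW27941 is a degrader that brings METTL3, the catalytic subunit of the m6A writer of mRNA, to the VHL ubiquitin ligase. The labels do not say that the 3 libraries of a group came from separate cultures, so p-values measure only the spread between these libraries.

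RGS proteins bind the active, GTP-bound Gα subunit and speed up its GTP hydrolysis, which ends the signal of a G protein-coupled receptor sooner. In leukocytes they set how strongly and for how long cells answer chemokines and other chemoattractants. The small R4 members RGS1, RGS2, RGS16 and RGS18 consist of little more than the RGS domain, RGS3 has long and short forms, RGS12 and RGS14 of the R12 subfamily also carry Ras-binding domains and a GoLoco motif, RGS10 is the short R12 member, and RGS19 belongs to the RZ subfamily with its cysteine string.

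The promoters of RGS1, RGS16 and RGS2, the members with lower levels on ZW27941, and of RGS18, a higher neighbour of RGS1, are shown because the counts of these genes moved in different directions and 3 of them lie in 1 cluster. They come from a RefSeq table of GRCh38.p14, in which all 9 members had an entry (19 entries in all), each covering 250 bases before to 50 bases after a transcript start. RGS1 is at chr1:192575523-192575822 (plus strand), RGS16 at chr1:182604340-182604639 (minus strand), RGS2 at chr1:192808789-192809088 (plus strand) and RGS18 at chr1:192158212-192158511 (plus strand). Capitals mark matches to the motifs searched.
RGS1: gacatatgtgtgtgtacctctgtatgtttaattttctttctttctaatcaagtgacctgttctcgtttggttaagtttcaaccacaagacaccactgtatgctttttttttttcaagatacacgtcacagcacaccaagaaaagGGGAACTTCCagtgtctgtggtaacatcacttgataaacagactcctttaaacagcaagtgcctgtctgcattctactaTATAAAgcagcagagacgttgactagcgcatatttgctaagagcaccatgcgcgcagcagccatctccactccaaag
RGS16: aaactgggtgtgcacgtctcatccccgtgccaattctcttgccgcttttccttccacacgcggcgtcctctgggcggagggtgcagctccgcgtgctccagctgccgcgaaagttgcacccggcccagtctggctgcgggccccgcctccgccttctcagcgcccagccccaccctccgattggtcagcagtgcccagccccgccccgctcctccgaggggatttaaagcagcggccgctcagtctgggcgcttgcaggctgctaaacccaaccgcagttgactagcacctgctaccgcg
RGS2: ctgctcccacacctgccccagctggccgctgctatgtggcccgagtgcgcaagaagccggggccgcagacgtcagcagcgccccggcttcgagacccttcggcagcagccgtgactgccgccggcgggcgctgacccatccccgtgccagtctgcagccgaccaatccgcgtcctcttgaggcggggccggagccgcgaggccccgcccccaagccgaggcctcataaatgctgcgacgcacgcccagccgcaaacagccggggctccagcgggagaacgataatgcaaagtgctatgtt
RGS18: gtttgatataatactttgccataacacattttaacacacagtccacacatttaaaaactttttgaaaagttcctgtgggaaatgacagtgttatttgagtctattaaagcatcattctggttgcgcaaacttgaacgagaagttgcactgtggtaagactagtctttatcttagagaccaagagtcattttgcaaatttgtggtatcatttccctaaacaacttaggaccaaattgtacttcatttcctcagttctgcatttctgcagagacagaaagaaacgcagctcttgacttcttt
The capitals in RGS1 are an NF-kB consensus match and, nearer the start, a TATAAA box. Both strands were searched for TATAAA, the AP-1 motif TGANTCA, the cAMP response element TGACGTCA, the STAT motif TTCNNNGAA and the NF-kB consensus, which can overlap one another. Among 35116 promoters of the same length, 11.5% held TATAAA, 7.71% TGANTCA, 1.85% TGACGTCA, 7.66% TTCNNNGAA and 7.73% the NF-kB consensus. Outside RGS1, the members' windows held a single match, TATAAA in 1 of the 5 windows of RGS3. GC content was 41.7% for RGS1 and 36.0% for RGS18, against 67.0% for RGS16 and 69.7% for RGS2 and a median of 58.7% over all promoters. A match describes letters in the window and is not a measured site.

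The libraries held 143454176 to 178744976 counts on genes, and the members had from 876 counts (RGS3) to 19348 counts (RGS16) in a library. The library totals are above the raw reads per sample that the study's methods state, and the reason was not tested. Levels are given in CPM, counts scaled to a common library total after TMM normalization. Between pairs of libraries of the same group, counts differed beyond sampling noise, with a chi-square per degree of freedom of 4.34 to 5.13 among DMSO libraries, 4.81 for ZW27941 replicates 1 and 2, and 7.79 and 11.5 for the pairs with ZW27941 replicate 3, which stood somewhat apart. METTL3 mRNA was at 122 ± 1.17 CPM in DMSO and 123 ± 4.96 CPM on ZW27941 (SD, n = 3), and since the compound acts on the protein this level does not check the labels. Of 10 myeloid and leukemia markers LYZ, MPO, SPI1, CD33, FLT3, HOXA9, MEIS1 and CSF1R were above 45.0 CPM in every library and ANPEP and CD68 stayed under 1 CPM. The summed level of the 10 was 2052 to 2121 CPM in DMSO and 2279 to 2349 CPM on ZW27941, with 5 of 10 called higher, among them LYZ and CSF1R, beside 16.3% of all genes tested. T and NK cell markers summed to 58.0 to 62.6 CPM, nearly all NKG7, and B cell markers to 27.1 to 30.2 CPM, mostly PAX5. Erythroid markers summed to at most 0.0832 CPM with HBB and HBA1 at 0. Epithelial and stromal markers summed to 276 to 286 CPM in DMSO and 343 to 350 CPM on ZW27941, nearly all PECAM1. Sums that rest so largely on NKG7, PAX5 or PECAM1 do not show other cell types in this single line. EPCAM and COL1A2 reached at most 0.0166 and 0.0265 CPM in a library. In the epithelial and stromal list PECAM1 was higher (259 against 327 CPM) and KRT18 was lower (12.7 against 10.2 CPM). KRT8 and COL1A1, the others tested in it, were not called. The part of these shifts in the RGS values was not tested, and in bulk RNA fewer cells of a kind and less RNA per cell cannot be told apart.

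On ZW27941, 3 of the 9 RGS transcripts fell, RGS1 the most, followed by RGS16 and RGS2, and 2 rose slightly, RGS18 and RGS10. The other 4 members, RGS3, RGS12, RGS14 and RGS19, did not pass the threshold of adjusted p under 0.05 in the quasi-likelihood test of edgeR (Benjamini-Hochberg adjustment over all genes tested). By that rule 5 of 9 members were called, beside 30.1% of all genes tested, with 2 higher beside 16.3% and 3 lower beside 13.8%. For 6 of 9 the CPM of the groups did not overlap, beside 41.6% of all genes tested. Because RGS1 was selected on this contrast, nothing is read from these shares. The median log2 fold change of the 9 was −0.030, and that of all genes tested was −0.0019. Of the R4 genes among the 9 members 4 of 5 were called (3 lower and 1 higher), beside 30.1% of all genes tested. Of the R12 and RZ genes among them 1 of 4 was called (higher). Other tested RGS genes, among them the R4 genes RGS8 (higher) and RGS13 (not called), are not in these counts. Nothing is read from the counts by subfamily either.

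RGS1, a regulator of chemokine receptor signalling in lymphoid and myeloid cells, lies at chr1:192575727-192580031 on the plus strand (GENCODE release 29, GRCh38). Its level was 24.8, 26.4 and 27.98 CPM in the DMSO libraries and 14.3, 16.2 and 15.0 CPM in the ZW27941 libraries. Every ZW27941 library was below every DMSO library, with a gap of 8.67 CPM between the groups. The mean went from 26.4 ± 1.57 CPM in DMSO to 15.2 ± 0.919 CPM on ZW27941 (SD, n = 3), a log2 fold change of −0.80 (standard error 0.044), which is 42.7% lower. Among the 12231 tested genes whose mean CPM had a log2 of 1 or more, 7 had a lower log2 fold change than RGS1. With each library left out in turn its log2 fold change ran from −0.85 to −0.76, and it was called each time.

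RGS16, an R4 member that acts on Gαi and Gαq subunits, lies at chr1:182598623-182604408 on the minus strand. It had the highest CPM of the 9 members, at 117, 128 and 123 CPM in DMSO against 89.3, 93.0 and 97.0 CPM on ZW27941. The groups were 19.9 CPM apart at their nearest libraries. Its mean went from 122.8 ± 5.69 CPM to 93.1 ± 3.84 CPM (SD, n = 3), for a log2 fold change of −0.40 (standard error 0.033), or 24.2% lower. In the same ranking 82 genes had a lower log2 fold change than RGS16.

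RGS2, which acts with preference on Gαq, lies at chr1:192809039-192812283 on the plus strand. The DMSO libraries had 10.1, 10.1 and 10.8 CPM of RGS2 and the ZW27941 libraries 8.48, 9.18 and 9.25 CPM. The ranges did not overlap but lay within 0.799 CPM of each other. Its mean of 10.3 ± 0.431 CPM fell to 8.97 ± 0.428 CPM (SD, n = 3), a log2 fold change of −0.20 (standard error 0.052), and 594 genes had a lower one. RGS1, RGS16 and RGS2 were called lower in all 13 alternative analyses, which changed the normalization, filter, test, block or libraries.

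RGS18, an R4 member known from megakaryocytes and platelets, lies at chr1:192158457-192185815 on the plus strand. It measured 13.3, 12.1 and 12.3 CPM in DMSO and 14.3, 14.3 and 13.6 CPM on ZW27941. The lowest ZW27941 library was 0.307 CPM above the highest DMSO library. The log2 fold change of RGS18 was 0.16 (standard error 0.044), from 12.6 ± 0.648 to 14.1 ± 0.389 CPM (SD, n = 3), and without DMSO replicate 2 it was 0.14 and no longer called. A long intergenic RNA on the opposite strand, AL390957.1, spans RGS1, RGS2 and RGS18 and shares 153 exon bases (5.5%) with RGS18 and none with RGS1 or RGS2. The strand setting of the counting is not given in the sources used here, so reads of that overlap cannot be assigned to a strand.

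RGS3, the R4 member with many isoforms, lies at chr9:113444731-113597743 on the plus strand. Its level was 6.11, 6.72 and 6.55 CPM in DMSO and 7.58, 6.78 and 7.26 CPM on ZW27941, so the groups were only 0.0592 CPM apart. The log2 fold change of 0.16 (standard error 0.062) was as large as that of RGS18 but did not pass. It did pass, at 0.17, 0.16 and 0.20, with library size as the only scaling, without the filter on low counts and without ZW27941 replicate 2, and at 0.16 with the replicate number as a block.

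**Figure D1:**
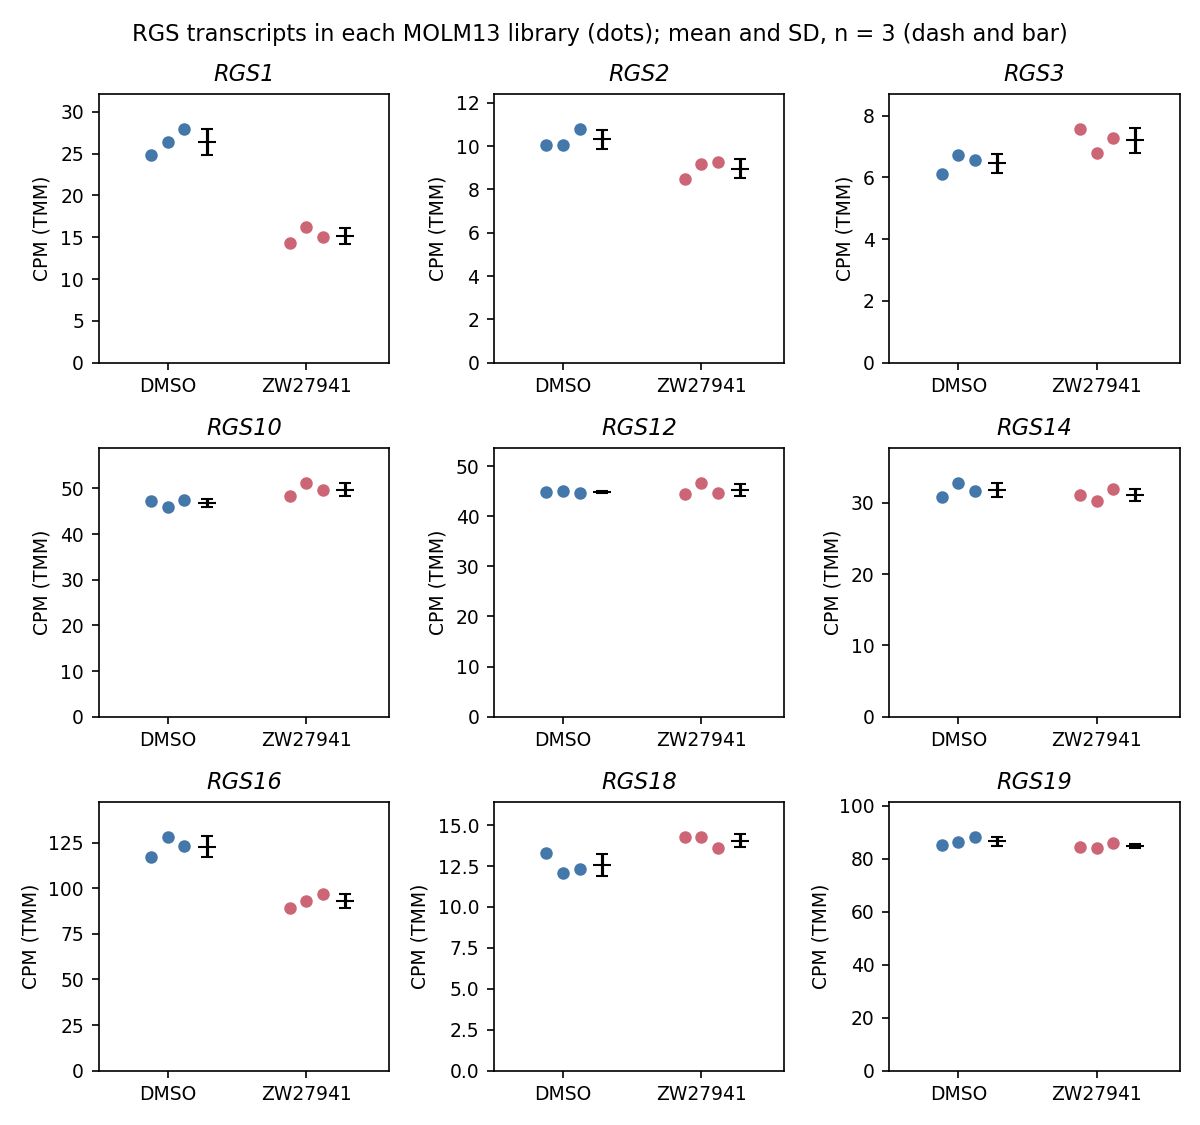
CPM of each RGS transcript (vertical axis, from 0) in the 3 DMSO and 3 ZW27941 libraries (dots), with the mean and SD beside them. The dots of the groups are clearly separated for RGS1 (24.8 to 27.98 against 14.3 to 16.2 CPM) and RGS16 (117 to 128 against 89.3 to 97.0 CPM) and close or overlapping for the other 7 members.

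RGS10, a small R12 member expressed in immune cells, lies at chr10:119499828-119542708 on the minus strand. It was at 47.2, 45.9 and 47.5 CPM in DMSO and at 48.3, 51.3 and 49.6 CPM on ZW27941. The groups did not overlap, and the log2 fold change was 0.086 (standard error 0.029). The call was lost with upper quartile normalization (0.063) and without DMSO replicate 1 (0.092), DMSO replicate 2 (0.072) or ZW27941 replicate 2 (0.063). RGS10 was therefore called through a small difference, and the call was not kept in every fit. Leaving a library out also lowers the power of the test. Without DMSO replicate 1 the call was lost although the difference was not smaller.

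RGS12 and RGS14, the large R12 members, lie at chr4:3293028-3439913 and chr5:177357837-177372601, both on the plus strand. RGS12 was at 44.8, 45.1 and 44.7 CPM in DMSO and 44.5, 46.7 and 44.6 CPM on ZW27941, with a log2 fold change of 0.012 (standard error 0.029). RGS14 was at 30.9, 32.9 and 31.7 CPM in DMSO and 31.1, 30.2 and 31.9 CPM on ZW27941, with a log2 fold change of −0.034 (standard error 0.032). The groups overlapped for both genes. RGS19, an RZ member first described through its binding to Gαi3, lies at chr20:64073181-64079988 on the minus strand. It was at 85.1, 86.4 and 88.4 CPM in DMSO and 84.6, 84.1 and 85.9 CPM on ZW27941, again with overlap, and its log2 fold change was −0.030 (standard error 0.025).

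**Figure D2:**
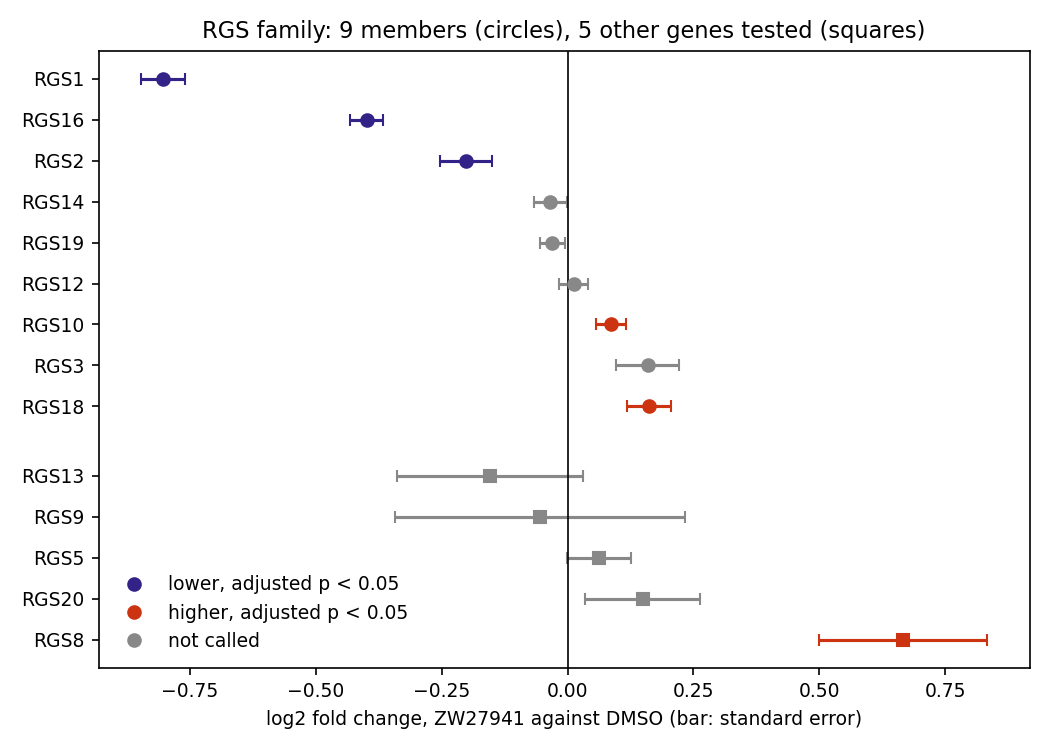
Log2 fold change on ZW27941 against DMSO (horizontal axis) with its standard error for the 9 members (circles) and 5 other RGS genes (squares), coloured by the call. RGS1 (−0.80), RGS16 (−0.40) and RGS2 (−0.20) lie to the left of 0, and RGS8 (0.67) lies farthest to the right with a wide bar.

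Levels of different genes were compared only per length, as CPM per kb of the exons of a gene in GENCODE release 29. In DMSO the order was RGS16 at 50.6 ± 2.35, RGS19 at 42.7 ± 0.810, RGS10 at 37.4 ± 0.669, RGS14 at 8.38 ± 0.263, RGS1 at 6.41 ± 0.382, RGS2 at 4.92 ± 0.206, RGS18 at 4.48 ± 0.231, RGS12 at 3.26 ± 0.0147 and RGS3 at 0.468 ± 0.0227 CPM per kb (SD, n = 3). The ranges of neighbours in this order did not overlap, and the highest level was 108 times the lowest (39.1 times with the length of the longest transcript). RGS16, RGS19 and RGS10 thus formed a group well above the rest. On ZW27941 the order at the top was RGS19 at 41.8 ± 0.450, RGS10 at 39.7 ± 1.17 and RGS16 at 38.4 ± 1.58 CPM per kb, where the ranges of RGS10 and RGS16 overlapped. RGS1 went from the fifth place to the seventh, at 3.68 ± 0.223 CPM per kb, below RGS18 at 5.01 ± 0.139 and RGS2 at 4.28 ± 0.204 CPM per kb. With the longest transcript in place of all exons, 4 of the 9 members kept their place in DMSO and RGS10 came first at 55.0 CPM per kb, and RGS12 moved from the eighth place to the sixth, above RGS2 and RGS18, so the order rests in part on the length used.

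**Figure D3:**
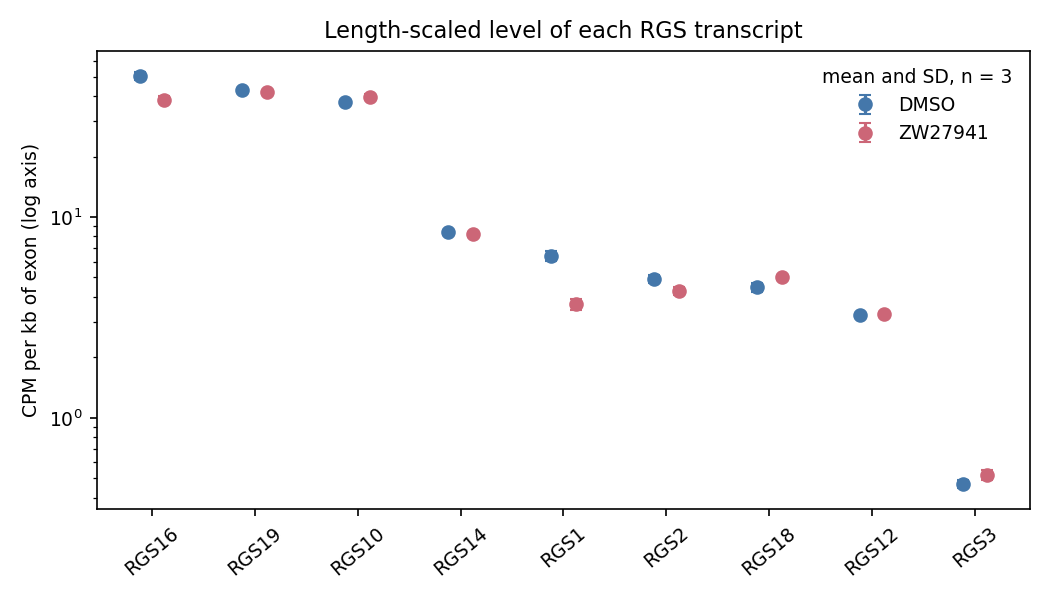
Length-scaled level of each RGS transcript in CPM per kb of exon (vertical axis, log scale), with members ordered by their DMSO mean, mean and SD of 3 libraries per group. RGS16, RGS19 and RGS10 lie between 37.4 and 50.6 CPM per kb in both groups, and RGS1 drops from 6.41 to 3.68 CPM per kb, below RGS2 and RGS18.

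Of 12 other RGS genes listed, 5 had enough counts to be tested. Of these RGS8 alone was called in the edgeR fit (20%, beside 30.1% of all genes tested). RGS8, an R4 member known mainly from brain, was at 0.363, 0.404 and 0.432 CPM in DMSO and 0.727, 0.603 and 0.569 CPM on ZW27941. Its groups did not overlap, and the log2 difference was 0.67 ± 0.17 (standard error; adjusted p = 0.00422, edgeR, Benjamini-Hochberg). The log2 fold changes of the other 4 were 0.062 for RGS5 (adjusted p = 0.510), 0.15 for RGS20 (adjusted p = 0.359), −0.055 for RGS9 (adjusted p = 0.910) and −0.15 for RGS13 (adjusted p = 0.582) in the same edgeR fit. RGS5 was the most abundant of these by counts, at 5.20 ± 0.169 CPM in DMSO (SD, n = 3). RGS4, RGS6, RGS11 and RGS21 had 0 counts in all 6 libraries, and RGS7, RGS17 and RGS22 had 1, 18 and 7 counts over the 6 libraries together.

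RGS1, RGS2 and RGS18 lie in a cluster of R4 genes in band 1q31 that also holds RGS13 and RGS21. Within 1000000 bases of the RGS1 start, 25 other genes are annotated and 8 were tested. RGS2 starts 233312 bases after RGS1 and fell, and RGS18 starts 417270 bases before it and rose. RGS13, a regulator known from germinal centre B cells and mast cells, starts 60411 bases after RGS1 and was at 0.432 ± 0.0655 CPM in DMSO and 0.388 ± 0.0111 CPM on ZW27941 (SD, n = 3), with overlapping groups. Genes of the cluster therefore did not share 1 direction.

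Farther after RGS1, the processed pseudogene ZNF101P2 (418950 bases) was lower, at 0.481, 0.550 and 0.432 CPM in DMSO and 0.183, 0.236 and 0.344 CPM on ZW27941. The log2 difference was −0.95 ± 0.22 (standard error; adjusted p = 0.00258, edgeR, Benjamini-Hochberg), and its counts may include reads of its parent gene. TROVE2 (483695 bases), which encodes the RNA-binding protein Ro60, was slightly higher, with a log2 fold change of 0.11 (edgeR adjusted p = 0.00808), and lost its call without DMSO replicate 2 (0.098), ZW27941 replicate 1 (0.087) or ZW27941 replicate 2 (0.094). Log2 fold changes were 0.004 for the deubiquitinase UCHL5 (484353 bases, edgeR adjusted p = 0.928), −0.10 for the glutaredoxin GLRX2 (530387 bases, edgeR adjusted p = 0.114) and −0.060 for CDC73, a subunit of the PAF1 complex (546073 bases, edgeR adjusted p = 0.107). GLRX2 passed without ZW27941 replicate 1 (−0.15), CDC73 without DMSO replicate 2 (−0.083), and both with upper quartile normalization (−0.12 and −0.084). Of the genes tested around it, only the low-count ZNF101P2 had a difference as large as that of RGS1.

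**Figure D4:**
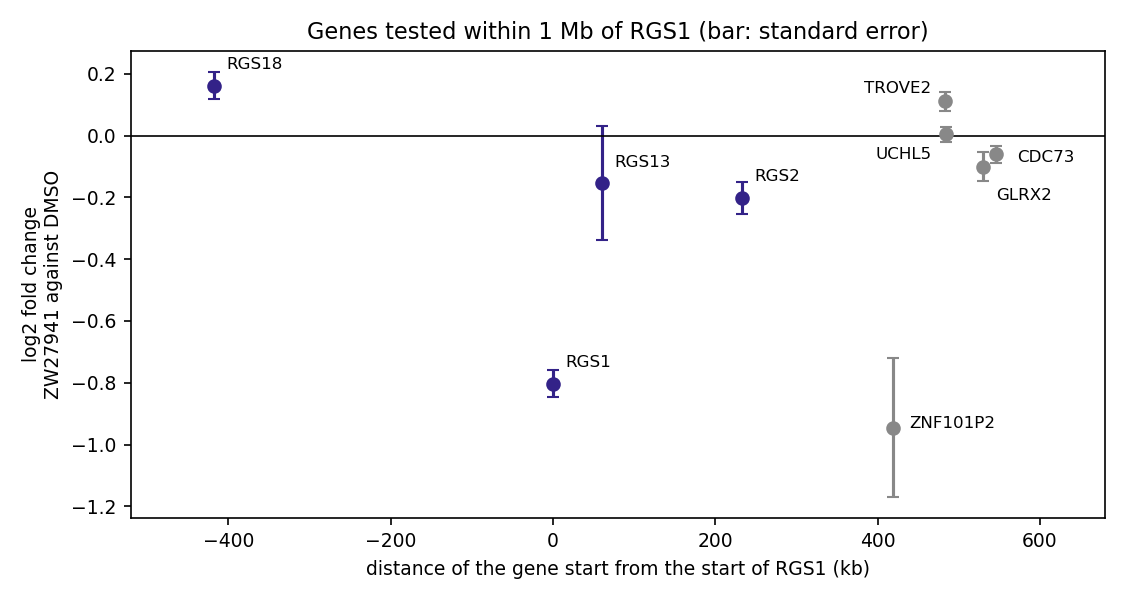
Log2 fold change on ZW27941 against DMSO with its standard error (vertical axis) for RGS1 and the 8 genes tested around it, by distance of the gene start from that of RGS1 in kb (horizontal axis), with RGS genes in blue and others in grey. RGS1 at −0.80 and ZNF101P2 at −0.95, the latter with a wide bar, lie far below the other 7 genes, which lie between −0.20 and 0.16.

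The genes whose 6 libraries were most like RGS1 were sought among 12230 tested genes above the same level, by the Euclidean distance between log2 CPM values taken relative to the DMSO mean. The median gene was 1.41 away from RGS1. SPP1, which encodes osteopontin, came nearest at 0.12, with 28.1, 31.2 and 33.0 CPM in DMSO and 17.4, 18.5 and 18.5 CPM on ZW27941. The next were HLA-DPA1, an HLA class II chain, at 0.12, DDIT3, the stress-response transcription factor CHOP, at 0.15, MYOM1, a myomesin, at 0.20 and TNXB, a matrix protein, at 0.23. TNXB has a near copy, the pseudogene TNXA, and HLA-DPA1 a related pseudogene, and whether reads were shared with them was not tested. Among the RGS members RGS16 was nearest to RGS1 at 0.71 and RGS2 next at 1.04, while the other 6 were 1.34 to 1.69 away. These distances use the same contrast as the choice of RGS1 and describe likeness over 6 libraries of this line only.

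GGACT is a favoured form of the sequence context in which METTL3 places m6A. It was counted in the longest annotated transcript of each member as a description, since m6A was not measured in these libraries. Other forms of the context were not counted, so few matches do not mean few possible sites. RGS1 held 1 match, or 0.377 per kb, and 12.7% of 12929 tested protein-coding genes held fewer per kb. RGS18 held 1 (0.465 per kb) and was similarly low, whereas RGS2 held 2 (1.48 per kb) and RGS16 held 3 (1.24 per kb). RGS10 and RGS12 had the most per kb, at 2.35 and 2.18, followed by RGS19 (1.88), RGS3 (1.52) and RGS14 (1.24), against a median of 0.938 over those genes. Of the 7 members above the median RGS2 and RGS16 fell, RGS10 rose and the other 4 were not called, and of RGS1 and RGS18, both below it, the first fell and the second rose.

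The genes on which RGS proteins act or with which they share the G protein cycle were followed in lists by role. Of 99 genes tested in the 8 lists, which include the other RGS genes, 40 were called in the edgeR fit. That is 40.4%, beside 30.1% of all genes tested. Of the 40, 32 were higher and 8 lower, and of all genes tested 16.3% were higher and 13.8% lower. Small changes pass more easily at high counts, and only 12231 of the 20399 genes tested had a mean CPM with a log2 of 1 or more. Shares were not compared at like levels, here or in the lists below, so no enrichment is read from them. Their log2 fold changes were mostly small. With a library left out the count was 33 (without ZW27941 replicate 1) to 43 (without ZW27941 replicate 3).

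Among proteins with an RGS-homology domain, listed together with the RGS-binding proteins RGS7BP and RGS9BP, 3 of 9 tested were higher and none passed lower. These stand beside 16.3% and 13.8% of all genes tested, and the list median was 0.015. ARHGEF11, which binds Gα12/13 subunits, had a log2 fold change of 0.20 (edgeR adjusted p = 4.18e-05, Benjamini-Hochberg). AXIN1, the scaffold of the β-catenin destruction complex, had 0.15 (edgeR adjusted p = 1.93e-04), and ARHGEF12, a relative of ARHGEF11 named after its values were seen, had 0.16 (edgeR adjusted p = 4.45e-04). With upper quartile normalization 5 of this list were called.

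The Gα subunits, which include the direct substrates of RGS proteins, had a list median of 0.032. Of 9 tested, 2 were called (22.2%), beside 30.1% of all genes tested. GNA11, a Gq-class subunit, was at 17.6 ± 0.701 CPM in DMSO and 15.9 ± 0.472 CPM on ZW27941 (SD, n = 3), with a log2 fold change of −0.15 (edgeR adjusted p = 0.00611, Benjamini-Hochberg). GNA13, a G12/13-class subunit, had overlapping groups and a log2 fold change of 0.080 (edgeR adjusted p = 0.0307). GNA11 lost its call without DMSO replicate 1 (−0.12), and GNA13 without DMSO replicate 1 (0.075), DMSO replicate 2 (0.063), ZW27941 replicate 1 (0.073) or ZW27941 replicate 2 (0.066) and with upper quartile normalization (0.056). Of 11 β and γ subunits tested 1 was called (9.09%, beside 30.1% of all genes tested), GNG11, at 0.17 (edgeR adjusted p = 0.00207). In this list 2 were called without DMSO replicate 2 or ZW27941 replicate 3 and 4 with upper quartile normalization.

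The non-receptor exchange factors and GoLoco proteins, which share the Gα subunit with RGS proteins, had 5 of 7 higher, beside 16.3% of all genes tested, and a list median of 0.12. In the 13 alternatives 4 to 5 of this list were called. RIC8B, a chaperone and exchange factor for Gα, had a log2 fold change of 0.16 (edgeR adjusted p = 9.56e-04, Benjamini-Hochberg) and CCDC88A, which encodes girdin, 0.12 (edgeR adjusted p = 0.00127). RIC8A (0.13), GPSM2 (0.13) and GPSM3 (0.070, edgeR adjusted p = 0.0409) were the others, named after their values were seen. Each of these 5 changes was smaller than those of RGS1, RGS16 and RGS2.

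Of the receptor kinases and arrestins, which switch off the receptor itself, 2 of 7 were higher, beside 16.3% of all genes tested. The list median was 0.059. GRK5 was at 4.92, 4.73 and 4.91 CPM in DMSO and 5.51, 6.40 and 6.11 CPM on ZW27941, a log2 fold change of 0.31 (edgeR adjusted p = 0.00139, Benjamini-Hochberg). GRK3 had 0.12 (edgeR adjusted p = 0.00495), and without ZW27941 replicate 3 the list had 4 called.

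Effectors downstream of G proteins had 4 lower and 2 higher of 13 tested, beside 13.8% and 16.3% of all genes tested. The list median was −0.026. PLCB3, a phospholipase C driven by Gαq, was at 58.9 ± 1.65 CPM in DMSO and 53.6 ± 0.920 CPM on ZW27941 (SD, n = 3), with a log2 fold change of −0.14 (edgeR adjusted p = 7.25e-04, Benjamini-Hochberg). The adenylyl cyclase ADCY9 had −0.15 (edgeR adjusted p = 7.94e-04). PLCB2 (−0.089) and the Rac exchange factor PREX1 (−0.11) were also lower, while PIK3CG (0.086) and PIK3R6 (0.15), the catalytic and a regulatory subunit of the Gβγ-driven phosphoinositide 3-kinase γ, were higher, all 4 named after their values were seen.

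Of 38 receptors tested, the longest list, 17 were higher and 3 lower, beside 16.3% and 13.8% of all genes tested. The list median was 0.105, in a range from −0.42 (LPAR6) to 1.11 (FPR2, standard error 0.34). FPR2 had low counts, at 0.0827 ± 0.0225 CPM in DMSO and 0.1805 ± 0.0197 CPM on ZW27941 (SD, n = 3). CX3CR1, the fractalkine receptor, was at 31.6, 30.1 and 31.5 CPM in DMSO and 37.5, 36.2 and 36.7 CPM on ZW27941, with a log2 fold change of 0.25 (edgeR adjusted p = 2.50e-06, Benjamini-Hochberg). S1PR4, a sphingosine 1-phosphate receptor, was at 1.03 ± 0.0610 CPM in DMSO and 1.81 ± 0.0851 CPM on ZW27941 (SD, n = 3), with 0.82 (edgeR adjusted p = 2.64e-06). CXCR4, the CXCL12 receptor whose signal RGS1 and RGS16 are known to shorten, had 0.10 (edgeR adjusted p = 0.00257). The 3 lower receptors were LPAR6 (−0.42), P2RY8 (−0.105) and ADGRE2 (−0.087), and these and CXCR4 were named after their values were seen.

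**Figure D5:**
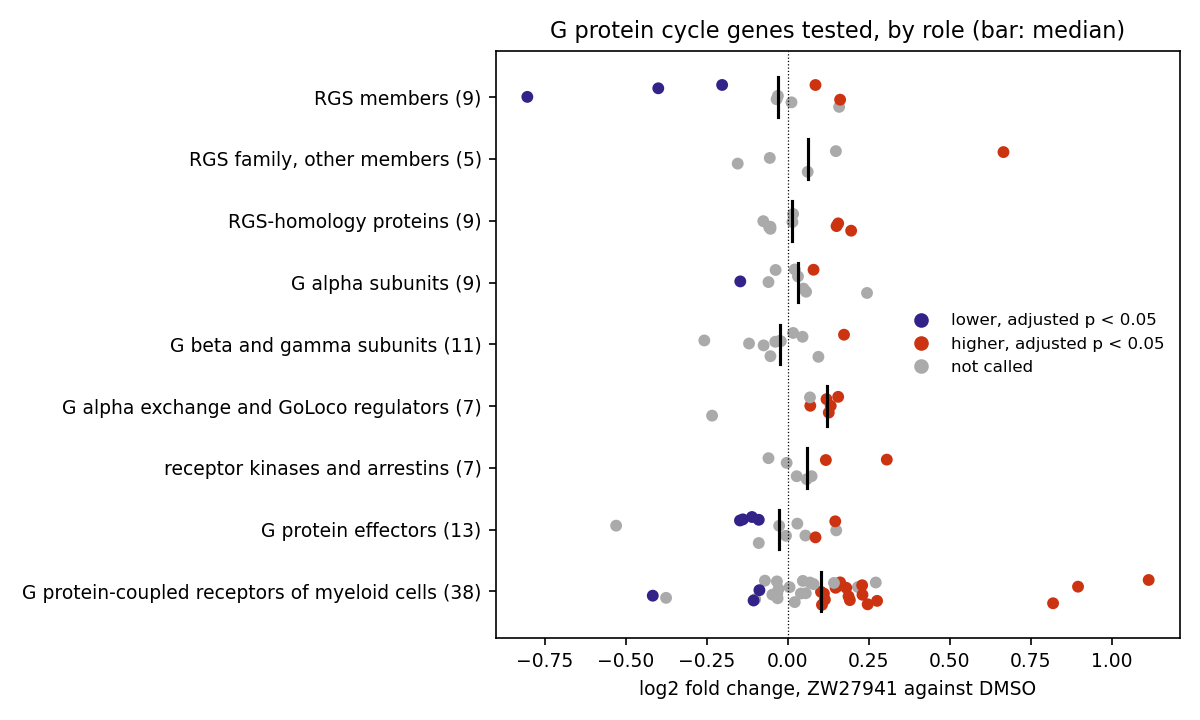
Log2 fold change on ZW27941 against DMSO (horizontal axis) of each tested gene of the RGS members and of the 8 lists of the G protein cycle, 1 row per list with the number tested in parentheses and a bar at the median. RGS1 at −0.80 is the lowest point of all rows, list medians lie between −0.030 and 0.12, and the receptors extend to 1.11 (FPR2, a gene with low counts).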

How the data were processed

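Total RNA of MOLM13 cells was sequenced in 3 DMSO and 3 ZW27941 libraries, and the authors deposited raw HTSeq counts per gene symbol, without normalization or filter. The labels' processing notes name HISAT2, SAMtools 1.19.2, HTSeq 2.0.3 and hg38, while the annotation and strand setting are not given in the sources used here. HTSeq's 5 tallies of unassigned reads (37.4% to 39.8% per library) were left out. The analysis used edgeR 4.0.16 in R 4.3.3 (TMM, filterByExpr, quasi-likelihood test, Benjamini-Hochberg adjustment over 20399 genes, threshold 0.05), and the common biological coefficient of variation was 3.11%. Standard errors of log2 fold changes came from this fit, and CPM used TMM-scaled totals.

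The RGS genes, the gene lists, the tests and the alternatives were chosen with earlier results of these data known. Named were all 9 members, every other tested RGS gene, the 2 called genes with the lowest p of each list, the 5 genes most like RGS1, and the genes tested within 1000000 bases of it. Loci, exon lengths and transcripts were taken from GENCODE release 29 (GRCh38, the build of hg38), and promoters from RefSeq (GRCh38.p14). Alternatives were RLE, upper quartile and library size scaling, 2 other filters, DESeq2 1.42.0, the replicate number as a block, and each library left out. The steps were tested on simulated data, in which the changes put in were larger than most of those named here. That test does not cover differences as small as that of RGS10.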

Additional observations from a re-analysis of the deposited data

How the results depend on the processing

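RGS1, RGS2 and RGS16 kept their direction and call in all 13 alternatives, with log2 fold changes of −0.85 to −0.758, −0.229 to −0.162 and −0.433 to −0.366. The number of members called, 5, ran from 3 to 5 with a library left out, the 3 being without DMSO replicate 2, where RGS10 and RGS18 were lost. All genes called ran from 4836 to 6287 and genes of the G protein cycle from 33 to 43. Upper quartile normalization shifted the median of all genes to −0.025 and the share of lower genes among all calls to 57.9%, from 45.8%. Signs turned for genes near 0 that were not called. With upper quartile normalization RGS12 was at −0.012 and UCHL5 at −0.020. With single libraries left out, RGS12 ran from −0.012 to 0.024, RGS9 from −0.209 to 0.102 and UCHL5 from −0.007 to 0.015. The cause was not tested. With the longest transcript as length, 4 of 9 members kept their place by level. Deviations from the group mean correlated at −0.0136, 0.0138 and 0.0324 between DMSO and ZW27941 libraries of the same replicate number. Not every library correlated best with its own number. All genes tested weighed alike in this check, those with low counts included, so it cannot exclude that the libraries were paired. With the replicate number as a block, 6 members and 6010 genes were called, RGS3 being added. With 3 libraries a group, the call of a difference as small as that of RGS10 was not kept in every fit with a library left out.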
